A study of Mus musculus with 6 samples.

Results

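Control mouse platelets were described from their RNA alone. The members were the 3 libraries labelled WT, chosen by that label and by no measured value, out of 6 libraries in the series. All 14975 genes of the table were used. The labels give these samples as peripheral blood platelets of C57BL/6 mice with the genotype WT. In the study's methods the RNA came from bone marrow transplantation (BMT) control mice, irradiated recipients that had received normal bone marrow 1 week earlier. The mice of the study were female, 8 to 12 weeks old, and the recipients were C57BL/6 or CD45.1 animals. The platelets were those of mice early after irradiation, not of untouched mice, and the share still made by the host's own marrow is not given in the sources used here. The libraries are called control 1, control 2 and control 3 here. Platelet-rich plasma was freed of cells that carried CD45 (leukocytes) or Ter119 (erythroid cells) before the RNA was taken. The series design text speaks of 2 replicates and of 3 to 4 pooled mice for each sample. The labels give 3 samples of this group, and the methods speak of 3 independent mice. The sources do not settle whether the spread between the libraries was that of mice, that of pools or technical.

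Platelets are fragments shed by megakaryocytes, the giant cells of the bone marrow. They have no nucleus, and most of their RNA is inherited from the megakaryocyte. They carry α granules filled with chemokines and adhesion proteins, dense granules with small molecules, a ring of microtubules under the membrane, an actin skeleton, mitochondria and glycogen. Their surface receptors bind von Willebrand factor, fibrinogen and collagen, and sense ADP, thrombin and thromboxane. Values are FPKM, read counts scaled for gene length and for the depth of the library, so levels of genes can be set beside each other per length. In bulk RNA a change in the number of platelets or other cells and a change in the RNA per cell cannot be told apart.

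Reads recovered from the FPKM values were 11935871 for control 1, 13876122 for control 2 and 11976303 for control 3. At these depths 3 reads on a gene of 2 kb equal 0.128, 0.107 and 0.126 FPKM, and lower values were not separable from 0. These limits cover counting error only. Genes at 0 are given as listed at 0.

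The bases before the annotated starts of 5 platelet genes are shown because these genes carry the comparisons of levels below. Pf4 and Ppbp are chemokine genes that lie next to each other, Gp9 and Gp1bb encode subunits of one surface complex, and Itga2b encodes the platelet integrin chain. The sequences are the 250 bases before an annotated start of each gene (RefSeq, GRCm38.p6), 5′ to 3′ on the strand of the gene. They were at chr5:90772185-90772434 (+ strand) for Pf4, chr5:90768268-90768517 (+ strand) for Ppbp, chr6:87777820-87778069 (+ strand) for Gp9, chr16:18622404-18622653 (- strand) for Gp1bb and chr11:102469884-102470133 (- strand) for Itga2b. The Gp9 window lies inside the RefSeq span of the gene, 87776131 to 87779786, and so not before its first start. Capitals mark the motif AGGAAG, a core bound by ETS factors, or its complement CTTCCT. The GATA motif AGATAA and its complement TTATCT were searched too.
Pf4: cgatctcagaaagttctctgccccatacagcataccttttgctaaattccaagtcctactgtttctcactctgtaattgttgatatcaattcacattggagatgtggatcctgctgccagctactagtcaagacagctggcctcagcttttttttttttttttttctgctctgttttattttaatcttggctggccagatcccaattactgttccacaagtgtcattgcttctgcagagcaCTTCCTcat
Ppbp: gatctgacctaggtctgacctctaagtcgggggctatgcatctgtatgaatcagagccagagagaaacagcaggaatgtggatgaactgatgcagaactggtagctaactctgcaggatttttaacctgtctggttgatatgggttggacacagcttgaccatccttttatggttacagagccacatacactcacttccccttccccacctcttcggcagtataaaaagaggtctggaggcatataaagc
Gp9: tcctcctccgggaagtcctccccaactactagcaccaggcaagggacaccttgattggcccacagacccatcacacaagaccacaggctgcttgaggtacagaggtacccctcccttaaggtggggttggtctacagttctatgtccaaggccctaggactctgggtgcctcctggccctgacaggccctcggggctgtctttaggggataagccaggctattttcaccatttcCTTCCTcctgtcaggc
Gp1bb: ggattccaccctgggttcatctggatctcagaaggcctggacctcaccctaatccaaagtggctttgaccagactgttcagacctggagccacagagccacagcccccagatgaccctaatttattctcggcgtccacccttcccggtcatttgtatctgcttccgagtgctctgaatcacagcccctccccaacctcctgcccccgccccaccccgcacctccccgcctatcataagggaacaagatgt
Itga2b: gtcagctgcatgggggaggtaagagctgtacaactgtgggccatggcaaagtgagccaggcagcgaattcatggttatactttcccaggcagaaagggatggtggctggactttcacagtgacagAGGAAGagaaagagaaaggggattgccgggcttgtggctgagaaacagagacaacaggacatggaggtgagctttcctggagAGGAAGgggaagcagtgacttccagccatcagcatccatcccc
Itga2b held 2 matches to AGGAAG, Pf4 and Gp9 held 1 each, and Ppbp and Gp1bb held none. AGATAA was found in 0 of the 9 marker genes that have a window, and AGGAAG in 4 of them. Over all 27025 windows of this length, 10.3% held AGATAA and 29.2% held AGGAAG on either strand. Among the 3080 windows of genes at 1 FPKM or more in all libraries the shares were 5.78% and 28.3%. The matches are a description of the letters, and neither motif was tested for a relation to the levels.

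The RNA of control platelets was concentrated on few genes. Of the FPKM sum, 12.6% was held by 1 gene, 52.8% by the top 10, 79.8% by the top 100 and 96.4% by the top 1000. The top 10 genes of each library held 54.1%, 53.1% and 51.2% of its sum. The number of genes that held 50% of the sum was 8, 9 and 10 in the libraries, and 9 for their mean. For 90% of the sum 318 genes were needed. Ranks were close between libraries, as 9 genes were in the top 10 of all 3 libraries and 95 genes in the top 100 of all 3.

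**Figure D1:**
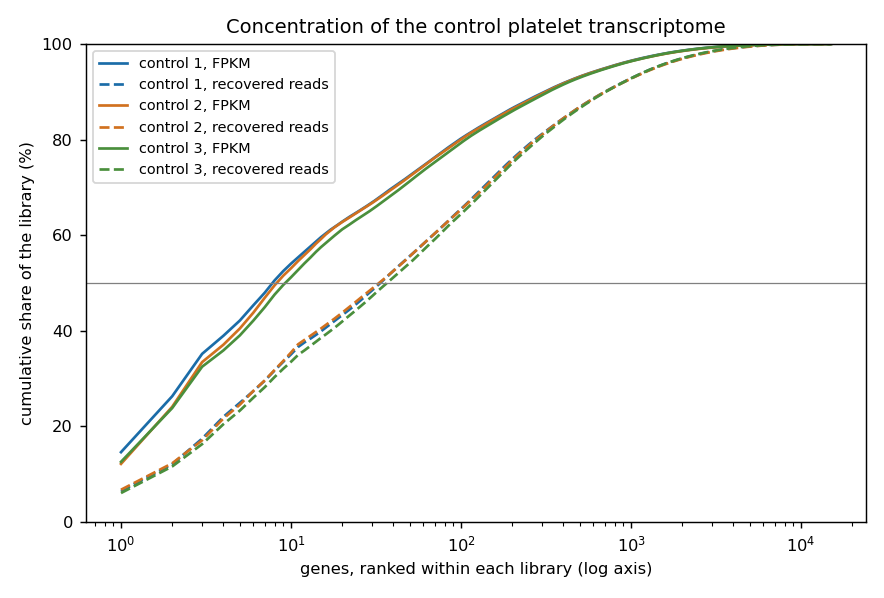
Cumulative share of each control library (%) against the number of genes ranked from the most abundant (log axis), for FPKM (solid lines) and recovered reads (dashed lines). The top 10 genes held 54.1%, 53.1% and 51.2% of the FPKM sum in controls 1, 2 and 3, and the curves for reads lie below those for FPKM.

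The scale set how strong this concentration was. Counted in recovered reads, the top 10 genes held 34.7% and 35 genes were needed for 50%. The genes at the top were short. The union of exons had a median length of 1212 bp in the top 30 genes, 1724 bp in the top 100 and 4155 bp in all genes with a length. Among the 14911 genes with a matched exon length, Tmsb4x came first with 6.46% of the recovered reads, before B2m with 5.49%, Pf4 with 4.76%, Actb with 4.69% and Ctla2a with 2.90%. Pf4 has 721 bp of exons and Actb 2679 bp. Rn45s, at rank 7 by FPKM, has no matched length and is in none of the values by reads. Tsc22d1, with 8994 bp, was rank 24 by FPKM and rank 8 by reads.

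Most listed genes were close to 0. A level of 1 FPKM or more in all 3 libraries was found for 3812 genes, 25.5% of the 14975 listed, and these held 99.5% of the FPKM sum. Another 415 genes reached 1 FPKM in 2 libraries, 482 in 1 library and 10266 in none. The median gene had a mean of 0.183 FPKM, and 40.9% of genes had a mean under 0.1 FPKM. At least 10 FPKM in all libraries was reached by 1412 genes, 100 FPKM by 355, 1000 FPKM by 57 and 10000 FPKM by 9. These 9 genes held 51.2% of the FPKM sum. Just inside the limit of 1 FPKM were Ep400 with 1.0001, 1.2005 and 1.52 FPKM, Ccar1 with 1.15, 1.001 and 1.35 FPKM and Stk10 with 1.002, 1.48 and 1.65 FPKM in controls 1, 2 and 3. Just outside were Pdxdc1 with 1.85, 0.9999 and 1.605 FPKM, Ngly1 with 1.94, 0.999 and 1.55 FPKM and Acot9 with 1.99, 1.84 and 0.998 FPKM. Of the listed genes, 9665 were above 0 in all libraries and 1484 were listed at 0 in all.

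Protein-coding genes held 95.5% of the FPKM sum. They held 99.4% of the recovered reads, which leave out Rn45s because it has no matched length. Rn45s, the 45S precursor of ribosomal RNA, held 2.83% of the sum, with 13973, 16187 and 14459 FPKM in controls 1, 2 and 3. The 48 microRNA hairpin genes held 1.05% of the FPKM sum but 0.0638% of the reads. Most of that was Mir6240, a gene of 117 bp with 3213, 5119 and 6064 FPKM from 4412, 8428 and 8442 reads. Its level of control 1 was below those of the other libraries. By chromosome, 5 held 22.0% of the FPKM sum, 2 held 16.8% and X held 10.3%, of which Pf4, B2m and Tmsb4x made 57.6%, 72.4% and 87.3%.

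Platelet identity was described with 10 marker genes, which were chosen with earlier results of these data known. Their levels are therefore no test of identity. All 10 were at 1 FPKM or more in all libraries, against 25.5% of all listed genes. The 10 markers held 23.4% of the FPKM sum. Pf4, platelet factor 4, was the most abundant gene with 79255, 62176 and 58030.5 FPKM in controls 1, 2 and 3. Control 1 was the highest, and Pf4 was rank 1 in control 1 and rank 2 in controls 2 and 3. Ppbp, pro-platelet basic protein, had 20466, 17187 and 16221 FPKM, again with control 1 the highest. Gng11, a γ subunit of heterotrimeric G proteins, had 17244, 18920.2 and 15936 FPKM. Myl9, the regulatory light chain of myosin II, had 8445, 7806 and 8279 FPKM, and its libraries lay within a coefficient of variation (CV, SD over mean) of 4.06%. Gp9, the glycoprotein IX subunit of the von Willebrand factor receptor, had 6358, 6680.1 and 7243 FPKM. These 5 genes were all within ranks 1 to 12. Tubb1, the β tubulin of the platelet ring, had 3128, 2776 and 3509 FPKM, and Itga2b, the α chain of the fibrinogen receptor, had 1449.6, 1389 and 1696 FPKM. Clec1b, the podoplanin receptor CLEC-2, and Treml1, an α granule membrane receptor, had means of 967 ± 35.7 and 889 ± 56.9 FPKM (SD, n = 3). The remaining marker, Gp1bb, was low and is described with the adhesion receptors.

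**Figure D2:**
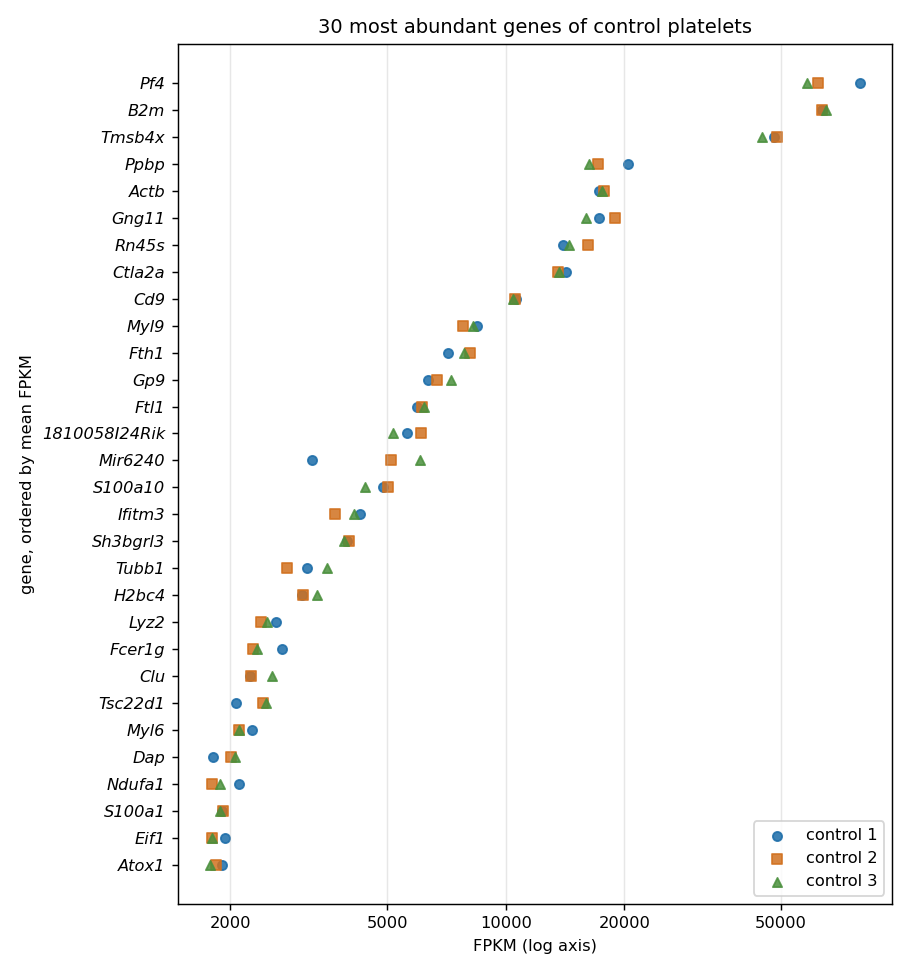
FPKM (log axis) of the 30 genes with the highest mean in controls 1, 2 and 3, ordered by mean, with 1 point for each library. Pf4 spans 58030.5 to 79255 FPKM and Mir6240 3213 to 6064 FPKM, while the 3 points of Actb and Cd9 almost coincide.

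B2m, the invariant light chain of MHC class I, had 63354, 63431 and 65038 FPKM with a CV of 1.49%. Tmsb4x, thymosin β4, which binds actin monomers, had 48068, 48685 and 44640.0 FPKM. Actb, cytoplasmic β actin, had 17277, 17719.9 and 17562 FPKM. Pf4, B2m and Tmsb4x together held 33.7% of the FPKM sum. Ctla2a, a relative of cathepsin propeptides, had 14203, 13569 and 13621 FPKM, and its paralog Ctla2b had 1784, 1713 and 1639 FPKM. Reads shared by these near-identical copies make the split between them uncertain. Cd9, a tetraspanin of the platelet surface, had 10629, 10555 and 10443 FPKM, a CV of 0.886%. Fth1 and Ftl1, the ferritin heavy and light chains, had means of 7701 ± 507 and 6097 ± 132 FPKM (SD, n = 3). The light chain has many gene copies, and its value may hold reads of them. Of the 30 genes, 10 were in none of the gene lists, and these held 8.75% of the FPKM sum. Among them were S100a10, the partner of annexin A2, with 4768 ± 330.2 FPKM, Ifitm3, an interferon-induced membrane protein, with 4019 ± 296 FPKM, and Atox1, a copper chaperone, with 1840.0 ± 62.6 FPKM (SD, n = 3).

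Genes for granule cargo spanned the range from the most abundant gene to genes listed at 0. Of 30 listed genes, 21 were at 1 FPKM or more in all libraries, or 70%, against 25.5% of all listed genes. The list held 19.9% of the FPKM sum, of which Pf4 was 63.4%. Clu, clusterin, had 2240.0, 2249.5 and 2551 FPKM. Srgn, serglycin, the proteoglycan core that retains chemokines in granules, had 1705, 1632 and 1594 FPKM. Thbs1, thrombospondin 1, had 1119, 919.5 and 1149.9 FPKM, with control 2 the lowest. The coagulation factors F13a1 and F5 had 171 ± 31.3 and 147 ± 13.3 FPKM (SD, n = 3), and Vwf, von Willebrand factor, had 83.2, 69.8 and 87.1 FPKM. The chemokine Ccl5 had 59.6, 85.5 and 79.05 FPKM. Pdgfa, a growth factor chain, had 20.05, 22.9 and 26.4 FPKM, while Pdgfb had 0.42997, 0.307 and 0.545 FPKM. Tgfb1 had 11.9, 4.93 and 6.82 FPKM.
Fibrinogen and fibronectin are known to enter platelets from plasma. Fgb, the fibrinogen β chain, was listed at 0 in controls 2 and 3 and had 0.0671 FPKM in control 1. Fn1, fibronectin, had 0, 0.231 and 0.0575 FPKM, Igf1 had 0.0172, 0 and 0.0339 FPKM, and Egf was listed at 0 in all libraries. Serpine2, a protease inhibitor, had 68.996, 59.4 and 59.7 FPKM. Timp1 was under the floor with 0, 0.08003 and 0 FPKM. Sparc and Gas6 had their highest value in control 2, with 0.855, 2.95 and 0.799 FPKM and 0.368, 1.95 and 0.891 FPKM.

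The chemokine genes next to Pf4 on chromosome 5 were at very different levels. Cxcl5 starts 13.1 kb before Pf4, Ppbp 3.92 kb before it and Cxcl3 13.7 kb after it (RefSeq, GRCm38). Cxcl5 had 11.02, 8.43 and 10.4 FPKM and Cxcl3 had 2.93, 2.38 and 3.72 FPKM in controls 1, 2 and 3. Pf4 was 3.69 ± 0.160 times Ppbp (mean ± SD of the 3 within-library ratios). Cxcl1, 119 kb after Pf4, had 0.179, 0.522 and 0 FPKM, and Cxcl2, 131 kb after it, had 0, 0 and 0.0851 FPKM. Each was listed at 0 in at least 1 library.

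Adhesion receptor genes were abundant as a group. Of 30 listed genes, 25 were at 1 FPKM or more in all libraries (83.3%), against 25.5% of all listed genes. The 30 genes had a median mean of 183 FPKM, against 0.183 for all listed genes. They held 5.16% of the FPKM sum, of which Cd9 was 38.8%. The receptor for von Willebrand factor, GPIb-IX-V, is built from Gp1ba, Gp1bb, Gp9 and Gp5. Gp1ba, the chain that binds the ligand, had 475, 463 and 507 FPKM, and Gp5 had 543, 514 and 629 FPKM. Gp9 was 14.0 ± 0.568 times Gp1ba and 12.1 ± 0.813 times Gp5 (SD, n = 3). Gp1bb had 4.78, 3.03 and 2.42 FPKM, from 117, 89 and 60 recovered reads, and Gp9 was 2178 ± 834 times higher (SD, n = 3). The exons of Gp1bb are overlapped over 92.9% of their length by other genes, mainly by Septin5 on the same strand (GENCODE M21, chromosome 16, 18620317 to 18622403 for Gp1bb). Septin5 had 2.27, 1.37 and 1.32 FPKM. The program that counted the reads is not given in the sources used here, and neither value can be assigned to its gene with certainty.

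The integrin chains Itga2b and Itgb3 form the fibrinogen receptor. Itgb3 had 792, 576 and 700.1 FPKM, and Itga2b was 2.22 ± 0.339 times higher (SD, n = 3). The chains of the collagen receptor were uneven, with 11.4, 10.96 and 12.3 FPKM for Itga2 and 296, 245 and 277 FPKM for Itgb1. Itga6, the laminin receptor chain, had 81.4, 97.7 and 106 FPKM. The fibronectin receptor chain Itga5 had 0.138, 0.0576 and 0.204 FPKM and was under 1 FPKM in all libraries. The collagen receptor Gp6 had 152, 139 and 154 FPKM, and its signaling partner, the Fc receptor γ chain Fcer1g, had 2701, 2279.5 and 2329.9 FPKM. Fcer1g was 16.4 ± 1.36 times Gp6 (SD, n = 3). Among junction proteins, Esam and Pecam1 had 199 ± 22.1 and 186 ± 22.4 FPKM, F11r had 63.9 ± 6.94 FPKM (SD, n = 3), and Jam3 had 0.0266, 0.1999 and 0 FPKM. Selp, P-selectin, had 36.2, 27.5 and 28.2 FPKM. Cd36, the thrombospondin receptor, had 0.664, 2.77 and 0.679 FPKM and was highest in control 2. The tetraspanins differed widely, with 337, 323 and 354 FPKM for Cd151, 33.2, 21.2 and 20.6 FPKM for Cd63, 0.0567, 0.0946 and 0.02797 FPKM for Cd82 and 0.0492, 0.0274 and 0 FPKM for Tspan33.

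**Figure D3:**
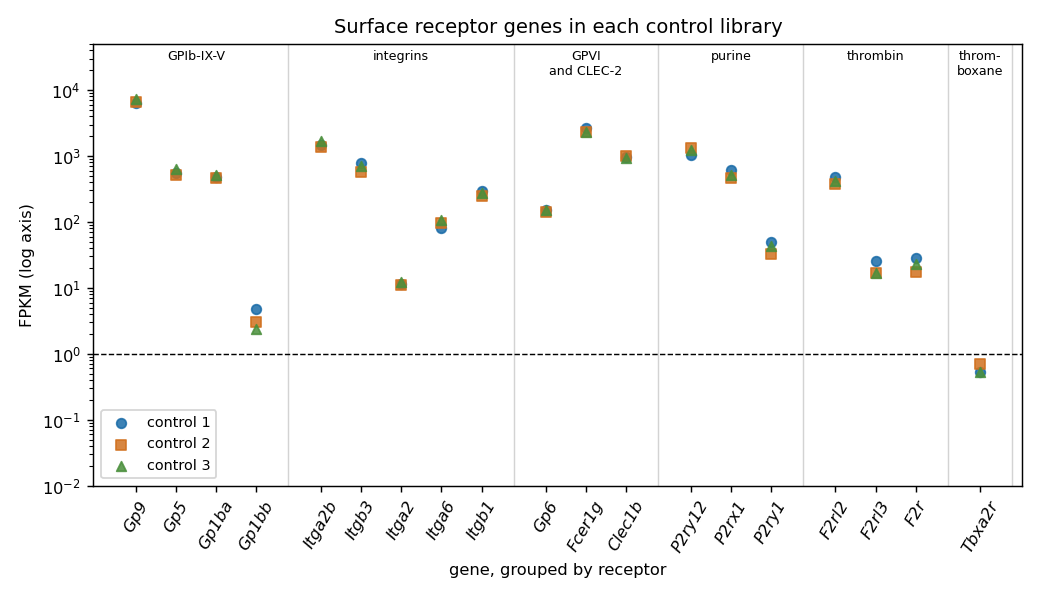
FPKM (log axis) of surface receptor genes in controls 1, 2 and 3, grouped by receptor, with a dashed line at 1 FPKM. Gp1bb lies between 2.42 and 4.78 FPKM while Gp9 of the same complex lies between 6358 and 7243 FPKM, and Tbxa2r is under the line in all libraries.

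Receptors for soluble agonists were led by the ADP receptor P2ry12, the target of clopidogrel, with 1047, 1318 and 1226 FPKM in controls 1, 2 and 3. Of 17 listed genes, 11 were at 1 FPKM or more in all libraries (64.7%), against 25.5% of all listed genes. The second ADP receptor P2ry1 had 49.4, 32.9 and 42.8 FPKM, and P2ry12 was 29.99 ± 9.52 times higher (SD, n = 3). The ATP-gated channel P2rx1 had 618, 467 and 517 FPKM. Mouse platelets sense thrombin through PAR3 and PAR4, encoded by F2rl2 and F2rl3. F2rl2 had 473, 374 and 414 FPKM and F2rl3 had 25.3, 16.9 and 16.7 FPKM, a ratio of 21.8 ± 3.06 (SD, n = 3). F2r, which encodes PAR1, had 28.5, 17.3 and 23.4 FPKM, so its 3 values overlapped those of F2rl3. The inhibitory prostacyclin receptor Ptgir had 9.68, 11.7 and 11.9 FPKM and the prostaglandin E receptor Ptger3 had 9.36, 5.47 and 6.49 FPKM. The thromboxane receptor Tbxa2r was low, with 0.533, 0.704 and 0.526 FPKM. The adrenergic receptor Adra2a had 0.582, 0.397 and 0.3304 FPKM, the serotonin receptor Htr2a had 0.122, 0.0127 and 0.165 FPKM, and the adenosine receptor Adora2a had 0.306, 0.673 and 0.549 FPKM. S1pr1, a receptor for sphingosine 1-phosphate, had 0.112, 0.513 and 0.331 FPKM, and Lpar5 was listed at 0 in all libraries. Of the nitric oxide sensor, Gucy1b1 had 43.5, 40.6 and 47.5 FPKM and Gucy1a1 had 3.17, 2.703 and 4.34 FPKM.

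Among G protein subunits and their regulators, 14 of 25 listed genes were at 1 FPKM or more in all libraries (56%). The share over all listed genes was 25.5%. Gng11 made 84.9% of the list's FPKM sum, and was 62.6 ± 4.89 times the next γ subunit Gng5 (SD, n = 3). Gnas, the stimulatory α subunit, had 432, 498 and 494 FPKM. The inhibitory subunits Gnai2 and Gnaz had 52.3, 59.97 and 64.8 FPKM and 34.3, 42.6 and 48.4 FPKM. Gnaq, which couples receptors to phospholipase C, had 12.3, 14.9 and 17.7 FPKM, and Gna13, another α subunit, had 3.66, 4.77 and 4.62 FPKM. Gna15 was listed at 0 in all libraries, and the subunits Gng2 and Gnb4 had 0.213, 0.2104 and 0.134 FPKM and 0.201, 0.0728 and 0.0861 FPKM. The regulators of G protein signaling Rgs18 and Rgs10 had 1153, 1343 and 1310.0 FPKM and 884, 907 and 879 FPKM. Rgs10 had a CV of 1.699%. The other 7 listed regulators, Rgs1, Rgs2, Rgs3, Rgs6, Rgs14, Rgs16 and Rgs19, were under 1 FPKM in all libraries. Gng10, at 0.513, 0.299 and 0.657 FPKM, has 72.0% of its exons covered by another gene and is uncertain.

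All 38 genes of the actin and myosin list were at 1 FPKM or more in all libraries, against 25.5% of all listed genes. The list held 16.3% of the FPKM sum, and its lowest member was Wipf1 with 5.95, 5.01 and 6.16 FPKM. Actb was 9.60 ± 1.15 times Actg1 (SD, n = 3), which had 2024, 1639 and 1855 FPKM. Pfn1, profilin, had 1832, 1339 and 1434 FPKM, with control 1 the highest, and Tpm4, tropomyosin 4, had 1419, 1209 and 1311 FPKM. Tagln2, transgelin 2, had 1176, 1254 and 1307 FPKM and Zyx, zyxin, had 874, 757 and 894 FPKM. Flna, filamin A, which links the von Willebrand factor receptor to actin, had 253, 204 and 277 FPKM, and Tln1, talin, which activates integrins, had 183, 171 and 207 FPKM. The heavy chain Myh9 had 43.2, 33.2 and 42.7 FPKM, and Myl9 was 208 ± 23.2 times higher (SD, n = 3). Coro1a, the leukocyte coronin, had 18.3, 10.7 and 6.64 FPKM, a CV of 49.9%.

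Of 23 tubulin and marginal band genes, 19 were at 1 FPKM or more in all libraries (82.6%), against 25.5% of all listed genes. Tubb1 was 2.34 ± 0.125 times Tubb2a (SD, n = 3), which had 1274, 1257 and 1481 FPKM. Among α tubulins, Tuba4a had 529.7, 370.4 and 408 FPKM, Tuba1a had 184, 124 and 160.2 FPKM, Tuba8 had 44.6, 48.99 and 57.2 FPKM and Tuba1b had 5.26, 4.96 and 4.69 FPKM. Of the exons of Tuba4a, 37.3% are overlapped by Stk16 on the opposite strand, and tubulin genes share sequence, so their split is uncertain. Tubb3 had 70.4, 17.2 and 17.7 FPKM, with control 1 apart from the others. Tubb4a, a brain tubulin, had 1.07, 0.351 and 0.339 FPKM and Tuba3a was listed at 0 in controls 2 and 3. Tubg1, of the centrosome, and Map1a, a microtubule-associated protein, were under 1 FPKM in all libraries.

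The activation signaling list had 30 of 41 genes at 1 FPKM or more in all libraries (73.2%), against 25.5% of all listed genes. Fermt3, kindlin 3, which activates integrins, had 919.8, 832 and 955 FPKM, and the small GTPase Rap1b had 484, 565 and 538 FPKM. Rasgrp2, the exchange factor that loads Rap1, had 114, 110.3 and 121 FPKM. Plek, pleckstrin, a substrate of protein kinase C, had 941, 785 and 890.5 FPKM. The calmodulin gene Calm2 had 993, 991 and 925 FPKM, above Calm3 with 158, 146 and 162 FPKM. The Src family kinase Lyn had 202, 202 and 227 FPKM, Fyn had 4.33, 4.61 and 5.49 FPKM and Src had 3.47, 2.75 and 4.38 FPKM. Syk, the kinase of the collagen receptor pathway, had 11.4, 11.2 and 12.9 FPKM, its adaptor Lat had 43.3, 37.5 and 31.9 FPKM and phospholipase Plcg2 had 7.67, 4.497 and 4.71 FPKM. Stim1 and Orai1, the store-operated calcium sensor and channel, had 28.3, 26.1 and 27.4 FPKM and 13.6, 15.02 and 15.2 FPKM. Of the inositol trisphosphate receptors, Itpr2 had 9.62, 14.8 and 14.9 FPKM, Itpr1 had 0.0553, 0.0666 and 0.0667 FPKM and Itpr3 was listed at 0 in all libraries. The phospholipases Plcb2 and Plcb3 had 0.0258, 0.0539 and 0 FPKM and 0.1098, 0.218 and 0.149 FPKM. Apbb1ip, which encodes the Rap1 effector RIAM, was at 0.0345, 0.0288 and 0 FPKM. Pik3cg and Pik3r1, subunits of phosphoinositide 3-kinases, had 0.848, 1.24 and 0.985 FPKM and 0.896, 1.21 and 1.23 FPKM. Vav3, an exchange factor, had 0.8796, 1.29 and 1.22 FPKM, Dab2, an endocytic adaptor, had 0.116, 0.252 and 0.0343 FPKM, and Ppp1r14a, an inhibitor of myosin phosphatase, had 1.122, 0.572 and 0.861 FPKM. Prkg1, the cGMP-dependent kinase, was under 1 FPKM in all libraries with 0.818, 0.599 and 0.754 FPKM.

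Enzymes that make eicosanoids were split into abundant and near-absent members, with 7 of 13 genes at 1 FPKM or more in all libraries (53.8%). The share over all listed genes was 25.5%. Alox5ap, the 5-lipoxygenase activating protein, had 1316, 1289.6 and 1299.8 FPKM, a CV of 1.003%. Alox12, platelet 12-lipoxygenase, had 1244, 1116 and 1289 FPKM. Ptgs1, the aspirin target cyclooxygenase 1, had 192, 167 and 196 FPKM, and Alox12 was 6.57 ± 0.0884 times higher (SD, n = 3). Ptgs2, the inducible cyclooxygenase, had 0, 0.0776 and 0 FPKM. Tbxas1, thromboxane synthase, had 73.5, 62.9 and 65.4 FPKM, and Pla2g4a, which releases arachidonic acid, had 10.5, 9.75 and 12.8 FPKM. The lipoxygenase Alox5 had 4.23, 1.64 and 2.05 FPKM, far below its activating protein. Ltc4s and Lta4h, which act after Alox5, had 0.08402, 0.491 and 0.497 FPKM and 0.1396, 0.175 and 0.0551 FPKM. Ptges3 had 1.61, 0.994 and 0.986 FPKM, and the prostaglandin D synthases Hpgds and Ptgds were under 0.1 FPKM in all libraries.

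Of 43 genes for granule biogenesis and secretion, 30 were at 1 FPKM or more in all libraries (69.8%), at a median mean of 2.83 FPKM. At that floor were 25.5% of all listed genes. The secretion SNARE Stx11, syntaxin 11, had 272, 275 and 322 FPKM, and its partner Snap23 had 224, 282 and 278 FPKM. Vamp3 and Vamp8 had 39.5, 37.02 and 39.9 FPKM and 19.8, 16.1 and 15.1 FPKM, and Stxbp2, which chaperones Stx11, had 25.3, 21.9 and 25.96 FPKM. Unc13d, the docking factor Munc13-4, had 23.2, 24.7 and 25.6 FPKM. Rab27b had 33.96, 36.5 and 36.9 FPKM and Rab27a had 1.16, 1.03 and 0.973 FPKM. Slc18a2, which loads serotonin into dense granules, had 6.77, 7.74 and 7.77 FPKM. Of the genes of the Hermansky-Pudlak group, Hps4 had 2.18, 1.84 and 1.75 FPKM, while Hps1 had 0.698, 0.692 and 0.847 FPKM, Hps3 0.0187, 0.0234 and 0.0277 FPKM, Hps5 0.2098, 0.0984 and 0.0776 FPKM and Hps6 0, 0 and 0.158 FPKM. Of the α granule genes, Nbeal2 had 0.642, 0.312 and 0.968 FPKM, Vps33b had 0.295, 0.225 and 0.145 FPKM, and its partner Vipas39 had 2.84, 2.801 and 2.86 FPKM. The members under 1 FPKM in a library included Rab38, Vps16, Bloc1s2, Bloc1s4, Bloc1s5 and Lyst, whose means ranged from 0.155 to 1.05 FPKM.

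Transcripts of megakaryocyte transcription factors were found, although platelets have no nucleus. Of 21 listed genes, 14 were at 1 FPKM or more in all libraries (66.7%), against 25.5% of all listed genes. Nfe2, a master regulator of platelet release, had 124.9, 115 and 131 FPKM, and Gata1 had 77.6, 67.7 and 94.1 FPKM. Gfi1b, a repressor, had 35.7, 46.8 and 51.7 FPKM, Fli1, an ETS factor, had 26.98, 28.6 and 35.4 FPKM, and Tal1 had 26.98, 21.2 and 28.6 FPKM. Gata2, which precedes Gata1 in development, had 15.2, 17.9 and 24.1 FPKM and Runx1 had 10.5, 9.64 and 11.8 FPKM. Control 3 was the highest library in 12 of the 16 members that averaged 1 FPKM or more, against 36.6% of all such genes and 46.5% of those with exons over 4 kb. The list's median deviation of control 3 from the mean was 0.16 on the log2(FPKM + 1) scale, against 0.02 over all genes that averaged 1 FPKM or more. Zfpm1, the GATA1 cofactor FOG1, had 0.8999, 0.71005 and 0.984 FPKM, and Ldb1 had 0.0555, 0.0926 and 0.0912 FPKM. Meis1, Etv6 and Srf were under 1 FPKM in at least 1 library, with means of 0.809, 1.02 and 1.03 FPKM. Cbfb, the partner of Runx1, was listed at 0 in all libraries.

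Glycolysis genes were at 1 FPKM or more in all libraries in 13 of 22 cases (59.1%), against 25.5% of all listed genes. Pkm, pyruvate kinase, had 476, 433 and 472 FPKM, Gapdh had 398, 368 and 363 FPKM and Aldoa had 294, 256 and 284 FPKM. Slc2a3, the glucose transporter GLUT3, had 327, 259.6 and 298 FPKM, whereas Slc2a1 (GLUT1) had 1.51, 1.09 and 0.599 FPKM. Hk1, hexokinase 1, had 51.9, 46.3 and 57.4 FPKM, while Hk2 and Hk3 were listed at 0 in 2 libraries each. Ldha had 73.6, 49.4 and 48.3 FPKM, with control 1 the highest. For glycogen, which platelets store as particles, 8 of 19 genes met the floor (42.1%). The phosphorylase Pygb had 44.4, 50.2 and 59.6 FPKM, and the muscle form Pygm had 13.8, 11.8 and 13.7 FPKM. Gyg, glycogenin, the primer of synthesis, had 21.7, 13.8 and 18.7 FPKM, but the synthase Gys1 had 0.142, 0.134 and 0.0175 FPKM. The branching enzyme Gbe1 had 4.08, 2.75 and 3.49 FPKM.

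Genes for the respiratory chain and ATP synthase met the floor in 70 of 83 cases (84.3%), against 25.5% of all listed genes. These 83 genes held 1.97% of the FPKM sum. Ndufa1, a subunit of complex I, had 2105, 1791 and 1886 FPKM, Cox6b1, of complex IV, had 1891, 1631 and 1465 FPKM, and Ndufa4 had 963, 774 and 741 FPKM. The sums of the list were 11452, 10081 and 9632 FPKM, and control 1 was the highest library in 64 of the 75 members that averaged 1 FPKM or more. Over all 4263 such genes control 1 was the highest in 36.8%. Genes encoded by the mitochondrial genome were not analysed here. Iron and antioxidant genes met the floor in 18 of 23 cases (78.3%). After the ferritins came Prdx6, a peroxiredoxin, with 1212, 1306 and 1431 FPKM, and Gpx4, which reduces lipid peroxides, with 873, 785 and 864 FPKM. Cat, catalase, had 293, 321 and 361 FPKM and Sod2 had 0.939, 0.915 and 0.757 FPKM. Tfrc, the transferrin receptor of dividing and erythroid cells, had 0.179, 0.287 and 0.149 FPKM.

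B2m carried 98.5% of the FPKM sum of the MHC class I list. Of its 16 genes, 8 were at 1 FPKM or more in all libraries (50%), against 25.5% of all listed genes. The heavy chains H2-D1 and H2-K1 had 558, 584 and 698 FPKM and 129, 112 and 160.4 FPKM, and B2m was 105 ± 10.6 times H2-D1 (SD, n = 3). Heavy chain genes are near copies of each other, which makes their split uncertain. Tapbp, tapasin, had 45.5, 41.7 and 46.8 FPKM, but the peptide transporter genes Tap1 and Tap2 had 0.264, 0.3504 and 0.107 FPKM and 0.586, 0.564 and 0.467 FPKM. Of genes that set platelet lifespan, Bcl2l1, which encodes the survival factor BCL-XL, had 136, 139 and 178 FPKM. Bak1, the killer it restrains, had 1.66, 0.6495 and 1.08 FPKM and Bax had 2.92, 3.25 and 1.97 FPKM. Mcl1 had 4.34, 4.74 and 4.35 FPKM and Bcl2 had 0.2698, 0.1397 and 0.284 FPKM. Casp9 and Apaf1 had 0.213, 0.0684 and 0.243 FPKM and 0.321, 0.354 and 0.195 FPKM. In this list 7 of 17 genes met the floor (41.2%), against 25.5% of all listed genes. Ano6, the scramblase of procoagulant platelets, had 2.55, 2.77 and 3.25 FPKM.

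**Figure D4:**
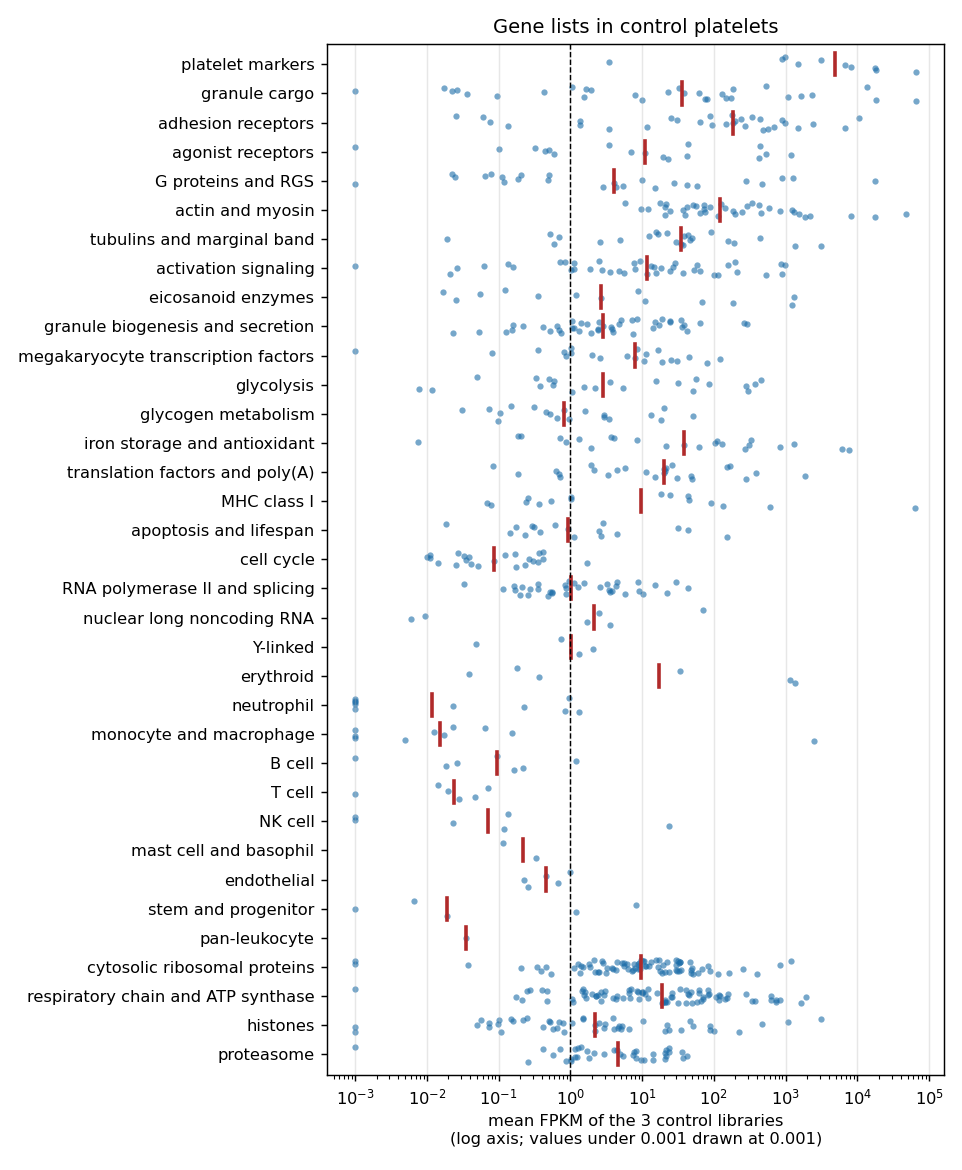
Mean FPKM over the 3 control libraries (log axis) of every listed gene of 35 gene lists, 1 point for each gene, with the list's median as a red bar and a dashed line at 1 FPKM. The actin and myosin genes all lie right of the line, while all genes of the T cell list and all cell cycle genes but Pcna lie left of it.

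Genes of dividing cells were low, while lists of nuclear genes lay above the 25.5% of all listed genes at the floor. Of 23 cell cycle genes, 1 was at 1 FPKM or more in all libraries (4.35%), which was Pcna with 1.88, 1.27 and 1.96 FPKM. Mki67 had 0.102, 0.191 and 0.226 FPKM and Top2a had 0.0378, 0.118 and 0 FPKM. Subunits of RNA polymerase II and splicing factors met the floor in 16 of 36 cases (44.4%). The largest subunit Polr2a had 0.494, 0.412 and 0.547 FPKM, while Srsf2, a splicing factor, had 39.2, 50.1 and 42.02 FPKM. Malat1 and Neat1, long noncoding RNAs that stay in the nucleus, had 3.28, 4.09 and 3.23 FPKM and 1.56, 1.73 and 1.81 FPKM. Gas5, a host gene of small nucleolar RNAs, had 69.7, 75.3 and 68.01 FPKM. Of the nuclear long noncoding RNA list 4 of 6 genes met the floor (66.7%), and Gas5 made 90.1% of its FPKM sum. Kcnq1ot1 of that list had 0.0064, 0.0137 and 0.0081 FPKM. Histone genes met the floor in 28 of 50 cases (56%). H2bc4 had 3032, 3054 and 3320.1 FPKM and H1f2 had 993, 1050.0 and 1196 FPKM, and these were among the 100 most abundant genes.

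Genes for the cytosolic ribosome were present but uneven. Of 82 listed genes, 67 were at 1 FPKM or more in all libraries (81.7%), against 25.5% of all listed genes. The 82 genes held 0.800% of the FPKM sum. Rpl41 had 1235, 1187 and 1122 FPKM, Rplp1 had 836, 892 and 753 FPKM, and Rplp0 had 419, 405 and 371 FPKM. The list varied more than most between the libraries, with a median CV of 26.7% among its 74 members that averaged 1 FPKM or more, against 14.4% over all 4263 genes. A CV above 30% was found in 30 of the 74 members and in 13.6% of all genes. Control 3 was the lowest library in 64 of the 74 members, and in 30.5% of all genes. Of the 256 genes with exons under 1 kb, control 3 was the lowest in 50.8%, and of the 1894 genes over 4 kb in 20.8%. The part of length in the ribosomal values was not tested. Rpl32 had 38.6, 36.8 and 15.1 FPKM, Rpl19 had 25.3, 21.6 and 9.95 FPKM and Rpl36 had 18.2, 34.9 and 4.83 FPKM, the last from 82, 188 and 22 reads. Ribosomal protein genes have many processed copies, and reads shared with these make single values uncertain. The translation factors met the floor in 20 of 25 cases (80%). Eif1, which selects the start codon, had 1932, 1797 and 1798 FPKM and the elongation factor Eef1a1 had 299.9, 282 and 246 FPKM. The proteasome list met it in 26 of 38 cases (68.4%), led by Psmd4 with 45.1, 34.8 and 45.4 FPKM.

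Markers of other blood cells were at or near 0, with named exceptions. For the counts below, 25.5% of all listed genes were at the floor of 1 FPKM in all libraries. Ptprc, which encodes the CD45 used for depletion, had 0.0863, 0.00600 and 0.0142 FPKM. The T cell list summed to 0.220, 0.122 and 0.193 FPKM with 0 of 6 genes at the floor, and Cd3g was listed at 0 in all libraries. The B cell list summed to 1.86, 1.93 and 1.38 FPKM with 0 of 7 genes at the floor, of which Cd74 made 69.7%, and Pax5 was listed at 0 in all libraries. The neutrophil list summed to 3.41, 3.66 and 3.11 FPKM with 1 of 10 genes at the floor, S100a8 with 1.596, 1.33 and 1.09 FPKM. Elane, Mpo, Lcn2, Ly6g and Retnlg were listed at 0 in all libraries. Both mast cell genes, Cpa3 and Fcer1a, were under 1 FPKM in all libraries, with sums of 0.649, 0.375 and 0.306 FPKM.
Lyz2, lysozyme of myeloid cells, had 2615, 2384 and 2475 FPKM at rank 21. It made almost the whole sum of the monocyte and macrophage list. The other 9 genes of that list summed to 0.0411, 0.294 and 0.490 FPKM, with Ccr2, Cd14 and Fcgr1 listed at 0 in all libraries. Nkg7, a granule protein of killer cells, had 22.9, 28.2 and 18.9 FPKM, while the other 5 genes of the NK cell list summed to 0.0929, 0.675 and 0.0656 FPKM and Ncr1 and Prf1 were listed at 0 in all libraries.
Of the erythroid list, Hba-a1 and Hbb-bt, the globin chains, had 1200.5, 1506 and 1309.7 FPKM and 1409, 1079 and 1011 FPKM. Alas2, Slc4a1 and Epb42 of the same list had means of 0.364, 0.0384 and 0.183 FPKM. Globin genes are near copies and their split is uncertain.

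The 3 libraries were close to each other. Among the 4263 genes that averaged 1 FPKM or more, the median CV was 14.4%, and counting error alone gave a median of 6.35%. The CV was above its counting error in 88.4% of these genes. The spread was smaller at higher levels, as the median CV was 17.99% from 1 to 10 FPKM, 11.1% from 10 to 100, 7.78% from 100 to 1000 and 7.36% over 1000 FPKM. The counting error of these classes was 8.76%, 3.22%, 1.14% and 0.467%. The median SD of log2(FPKM + 1) was 0.17. Between any 2 libraries, 46 to 67 genes of the 4263 differed by more than 2-fold on the log2(FPKM + 1) scale.

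**Figure D5:**
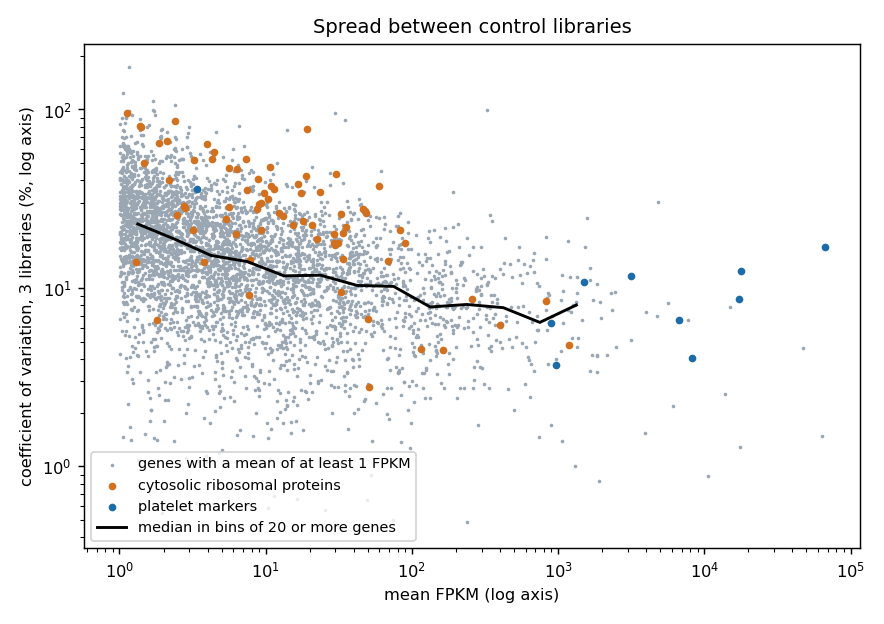
Coefficient of variation over the 3 control libraries (%, log axis) against mean FPKM (log axis) for genes that averaged 1 FPKM or more (grey), with the cytosolic ribosomal protein genes in orange, the platelet markers in blue and the median in bins as a black line. The median goes from 17.99% at 1 to 10 FPKM to 7.36% over 1000 FPKM, and most ribosomal protein genes lie above the line.

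The steadiest genes from a mean of 100 FPKM upward were Lamp1, a lysosome membrane protein, with 237, 239 and 237 FPKM and a CV of 0.489%, and S100a1, a calcium-binding protein, with 1906, 1911 and 1882 FPKM and a CV of 0.826%. The next were Cd9, Alox5ap, Actb, Itm2b, Laptm5, B2m, Sh3bgrl3 and Rgs10, with CVs from 0.886% to 1.699%. These CVs are the smallest picked from 371 genes, and each rests on 3 values. The FPKM sums of controls 1, 2 and 3 were 541784, 520830 and 515985, and these CVs were not rescaled to one total. Both Itm2b and Laptm5 encode membrane proteins of internal compartments, with 1059 ± 14.7 and 739 ± 10.8 FPKM (SD, n = 3).

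The 15 genes with the largest CV from a mean of 10 FPKM upward were led by Lars2, the mitochondrial leucyl-tRNA synthetase. It had 696, 95.1 and 184 FPKM in controls 1, 2 and 3, with control 1 apart. Gm12338, a pseudogene of 192 bp, had 0.444, 31.1 and 57.3 FPKM from 1, 84 and 131 reads. Tubb3 and Rpl36 followed with CVs of 87.04% and 77.9%. Fabp4, a fatty acid carrier of fat and endothelial cells, had 11.4, 25.6 and 4.69 FPKM, with control 2 the highest. Ribosomal proteins or their pseudogenes made 5 of the 15, which were Rpl36, Rpl24, Rpl32, Rpl14-ps1 and Rpl19. From the same level upward, the cytosolic ribosome list made 40 of 1532 genes. The 40 do not include the pseudogene Rpl14-ps1. The microRNA hairpin genes Mir23a and Mir8116 had 26, 78 and 72 and 30, 26 and 13 reads. Cox7c, Coro1a, Yif1b and Cd24a completed the set with CVs from 39.9997% to 49.9%. Of the genes listed at 0 in at least 1 library, those with the highest means were Mir6942, H2ac13, Vaultrc5, Olfr678 and Cfd, with means from 0.765 to 1.17 FPKM.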

How the data were processed

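Platelet RNA of 3 control libraries was used out of the 6 libraries deposited. Per the labels and methods, cDNA was made with SMART-Seq2 from polyA RNA and tagged with Nextera XT, and the authors mapped reads to mm10 with STAR. The authors deposited FPKM values per gene with Entrez identifiers and symbols. The counting program and annotation are not given in the sources used here. FPKM times union exon length (GENCODE M21, matched for 14911 genes) gave whole reads within 0.02 for 81.4% to 81.7% of values, so recovered reads are estimates. No library was compared with another group, and no test was run. Counts of genes used a floor of 1 FPKM in all 3 libraries, logs used log2(FPKM + 1), and SDs are over 3 libraries, which measure only the spread between these samples, possibly technical. No paired analysis was made. Counting CVs assume Poisson reads. The scripts were tested on simulated data. Python 3.11.15, numpy 2.4.6, pandas 2.3.3, scipy 1.17.1 and matplotlib 3.10.9 were used.

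The genes and lists were chosen with earlier results of these data known. Named were 5 markers, the 30 genes with the highest mean, up to 5 top members of each list and all members of platelet lists under the floor, the 15 largest CVs (mean of at least 10 FPKM) and 10 smallest (at least 100 FPKM), the 3 genes on each side of the floor, and the 5 highest means among genes at 0 in a library. Other genes were chosen after their values were seen. A few items that this rule names are not reported here. The lists were 36, of which the mitochondrial genome list matched 0 listed genes. Promoter sequences are from RefSeq. Alternatives were other floors, rescaling to one total, medians, shares of reads, left-out genes or libraries, other filters and another pseudocount.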

Additional observations from a re-analysis of the deposited data

How the results depend on the processing

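No paired analysis was possible because the results come from no test. Of the shares of the FPKM sum and the counts of genes, those that moved did so by scale or by the genes left out. Counted in recovered reads, the top 10 genes held 34.7% and the top 100 held 65.1%, and 35 genes held 50%. Without Pf4 and B2m, chosen after seeing the data, the top 10 held 40.9% and 19 genes held 50%. The median CV was 42.2% with no filter, 10.2% from a mean of 10 FPKM on and 16.7% with libraries rescaled to one total. Leaving out each library in turn gave 10.5% to 12.5%, since a SD over 2 values has a lower median than a SD over 3. The median SD of log2(FPKM + 1) was 0.20 with a pseudocount of 0.1, 0.10 with no filter, and 0.12 to 0.14 with a library left out. Other settings of these results moved by less than 1.5 times for counts or by less than 1 SD for shares, which left 2929 to 4771 genes at the floor. Of the members of gene lists at the floor, 15 of 245 counts moved by more than that or to or from 0, and 230 did not. The 15 were in the cell cycle, Y-linked, neutrophil, B cell, endothelial and stem and progenitor lists, where the counts were 0 to 3. Without control 2 the neutrophil list had 2 genes at the floor, and without control 3 the B cell list had 1 and the stem and progenitor list 2. Leaving out mitochondrial genome genes gave no value, as none are listed. Levels under about 0.128 FPKM on a gene of 2 kb are limited by depth.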

Other observations

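Several genes of vessel walls and progenitor cells had their highest value in control 2, and they were picked after their values were seen. Over the 4263 genes that averaged 1 FPKM or more, control 2 was the highest in 26.6%. Eng, Cdh5, Kdr, Egfl7 and Tek averaged under 1 FPKM and are not among those. The endothelial list (Cdh5, Kdr, Tek, Egfl7 and Eng) summed to 2.43, 4.21 and 1.18 FPKM in controls 1, 2 and 3, and 0 of its 5 genes were at 1 FPKM or more in all libraries. Eng, the TGF-β coreceptor endoglin, had 0.842, 1.896 and 0.228 FPKM and Cdh5, the cadherin of endothelial junctions, had 0.223, 0.473 and 0.07998 FPKM. Cd34, an antigen of progenitors and vessels, had 1.62, 1.75 and 0.214 FPKM, and Ly6a, which encodes the stem cell antigen Sca-1, had 7.35, 12.1 and 5.02 FPKM. In these 4 genes, and in Kdr, Egfl7, Fabp4 and Sparc, control 2 was the highest and control 3 the lowest. Kdr differed little between controls 1 and 2, with 0.726 and 0.732 FPKM, and the values of Cdh5 came from 11, 28 and 4 reads. Tek had 0.181, 0.271 and 0.232 FPKM, and like Cd36 and Gas6 it was highest in control 2 but lowest in control 1. Kit had 0, 0.0565 and 0 FPKM, Myb had 0.0201, 0 and 0 FPKM and Flt3 was listed at 0 in all libraries, so the stem and progenitor list met the floor with Ly6a alone. The part of other cells in these values was not tested.

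Genes of the Y chromosome were read in all 3 libraries, while the study's methods describe female mice. Eif2s3y had 2.396, 2.43 and 1.47 FPKM, Ddx3y had 1.18, 1.59 and 1.15 FPKM, Uty had 0.632, 0.924 and 0.678 FPKM and Kdm5d had 0.0529, 0.0606 and 0.0326 FPKM. The sex of the marrow donors of these libraries is not given separately in the sources used here.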
